A study of Mus musculus with 10 samples.

Results

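The replication-dependent histone genes are the genes that supply the bulk of the nucleosome proteins when DNA is copied. All protein-coding genes whose GENCODE M1 name begins with Hist1h, Hist2h, Hist3h or Hist4h were taken, which gave 67 genes of 22359 protein-coding genes with a transcription start site (TSS). They comprised 6 genes for the linker histone H1, 19 for H2A, 18 for H2B, 11 for H3 and 13 for H4. The choice used names only and no measured value.

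The peaks came from ChIP-Rx, chromatin immunoprecipitation with a spike-in of Drosophila S2 cells, of mCherry+ cells sorted from day 4 mouse embryoid bodies. Scl:mCherry cells carried the mCherry reporter on 1 allele of Scl (Tal1), a bHLH transcription factor needed for blood specification, and were derived from J1 embryonic stem cells. Scl Δ/Δ:mCherry cells were made from that line by CRISPR and lacked the bHLH region on both alleles, so both groups carried the reporter. Both lines were expanded from single sorted cells. The strain label read C57Bl/6 X Sv129 for the first library, and its last number ran on from library to library. 1 library was made for each of H3K4me3, H3K27ac, H3K27me3 and H2AK119ub in each genotype, so 8 peak lists were compared with no replicate and no test of any difference between genotypes, and the spread between cultures is unknown. The lists held from 2388 peaks for H2AK119ub in Scl Δ/Δ:mCherry to 16038 for H3K4me3 in Scl:mCherry, and read depth cannot be read from them. H3K4me3 was called at all 5 early mesoderm and blood genes examined (Kdr, Pdgfra, Etv2, Lmo2 and Fli1) in both genotypes. It was also called at the neural gene Neurod1 and not at the cardiac genes Tnnt2 and Myh6. H3K27me3 was called in both genotypes at 4 of the 5, all but Etv2, and at Neurod1. H3K27ac was called at Lmo2 and Fli1 in Scl:mCherry only, and at none of the 5 in Scl Δ/Δ:mCherry.

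Replication-dependent histone genes lie in tight arrays, and many H2A and H2B genes face away from each other across a shared promoter. They are typically short and without introns, and their messages typically end in a conserved stem-loop bound by SLBP instead of a poly(A) tail. Some of the genes taken here, such as Hist1h2be, are annotated over a much longer stretch. NPAT, activated by cyclin E and Cdk2, drives them as cells enter S phase, with HINFP acting at H4 promoters and Oct-1 (Pou2f1) at H2B promoters. H3K4me3 marks the start sites of active and poised genes, H3K27ac marks active promoters and enhancers, and H3K27me3 and H2AK119ub are laid down by the Polycomb complexes PRC2 and PRC1. Because the coding sequences of a class are nearly alike, a short read from inside these genes often fits several of them.

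In mm9 the genes fell into 7 groups when neighbours up to 200 kb apart were joined. Chromosome 13 held 18 genes in a span of 123 kb (named Hist1-A here), 5 genes within 12.6 kb (Hist1-B), 31 genes within 408 kb (Hist1-C) and Hist1h2al alone (Hist1-D). The Hist2 group on chromosome 3 held 9 genes within 54.8 kb, the Hist3 group on chromosome 11 held Hist3h2a and Hist3h2ba, and Hist4h4 stood alone on chromosome 6. Another protein-coding TSS lay within 5000 bp of 60 of the 67 genes (89.6%), against 20.1% of all protein-coding genes. Of 13 pairs that faced away from each other with start sites at most 1000 bp apart, 12 joined an H2A and an H2B gene, and Hist1h2bh with Hist1h3f was the other.

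Most of the family shared a sequence pattern after the stop codon, which was not confined to the family and occurred in 250 protein-coding genes in all. A perfect stem of 6 bases around a loop of 4 bases that begins with TT was found within 150 bases after the stop codon in 61 of 67 histone genes (91.0%), 22 to 59 bases after the stop, against 1.14% of all 21910 protein-coding genes with an annotated stop codon, these histone genes included. The commonest form stood in 39 genes, and the H4 genes had forms of their own. The most frequent forms are shown with the stem in capitals and the loop in lower case, as DNA read in the direction of transcription.
Stem-loop of 39 genes, among them Hist1h1e, Hist1h2bq and Hist3h2a: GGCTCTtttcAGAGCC
Stem-loop of 9 genes, among them Hist1h3e and the testis genes Hist1h1t and Hist1h2ba: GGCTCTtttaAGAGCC
Stem-loop of 8 H4 genes, among them Hist4h4 and Hist1h4m: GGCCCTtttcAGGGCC

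Promoter motifs were searched on both strands from 250 bases before to 50 bases after the TSS. CCAAT stood in 57 of 67 histone promoters against 37.9% of all promoters of that length, and it was present in all H1, H2A and H2B promoters and in 4 of 13 H4 promoters. TATAAA stood in 38 of 67 against 13.4%. The octamer ATTTGCAT, the site of Oct-1, was found in 8 of 18 H2B and 7 of 19 H2A promoters and in no H1, H3 or H4 promoter, against 1.72% of all promoters. Windows of divergent genes overlap, so the same octamer can count for both genes of a pair. Both genes had it in the pairs Hist1h2ah with Hist1h2bk, Hist1h2ae with Hist1h2bg, Hist1h2ac with Hist1h2bc, Hist1h2aa with Hist1h2ba and Hist2h2ac with Hist2h2be. GGTCCG, the core of the HINFP site, stood in 12 of 13 H4 promoters and in 3 of the other 54, against 9.88% of all. AAACACA, the H1 box, stood in 5 of 6 H1 promoters against 6.42% of all. The annotated TSS of 9 of the 67 genes was the first base of the start codon, so their windows reach less far upstream.

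These promoters are shown because the marks called within 2500 bp of their start sites differed, as described further on, with every match to the motifs in capitals. The first is the whole interval between a divergent H2A and H2B gene with H3K4me3 and H3K27ac in both genotypes. The next belongs to the testis pair Hist1h2ba and Hist1h2aa, where H3K27me3 was called and H3K4me3 was not. Hist3h2a carried H3K4me3, H3K27me3 and H2AK119ub in Scl:mCherry. Hist1h1e carried H3K4me3 and H3K27me3 there, as did Hist3h2ba. Not all of these peaks lie on the printed bases. The H3K27ac peaks of the first, the H3K27me3 and H2AK119ub peaks of Hist3h2a and the H3K27me3 peak of Hist1h1e lie outside them.
Hist2h2ac/Hist2h2be (chr3:96024804-96025043, plus strand, 240 bases): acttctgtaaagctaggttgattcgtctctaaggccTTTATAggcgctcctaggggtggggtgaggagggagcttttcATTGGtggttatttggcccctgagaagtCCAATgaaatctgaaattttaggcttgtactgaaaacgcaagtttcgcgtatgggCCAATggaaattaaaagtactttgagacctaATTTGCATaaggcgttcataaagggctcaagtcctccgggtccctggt
Hist1h2ba (chr13:24025976-24026275, minus strand, 300 bases): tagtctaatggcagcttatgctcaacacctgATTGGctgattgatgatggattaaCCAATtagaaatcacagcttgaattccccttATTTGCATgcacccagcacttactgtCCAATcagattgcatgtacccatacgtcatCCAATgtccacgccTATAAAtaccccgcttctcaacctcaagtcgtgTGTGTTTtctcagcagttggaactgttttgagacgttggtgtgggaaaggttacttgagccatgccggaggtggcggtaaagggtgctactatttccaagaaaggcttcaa
Hist3h2a (chr11:58767937-58768236, plus strand, 300 bases): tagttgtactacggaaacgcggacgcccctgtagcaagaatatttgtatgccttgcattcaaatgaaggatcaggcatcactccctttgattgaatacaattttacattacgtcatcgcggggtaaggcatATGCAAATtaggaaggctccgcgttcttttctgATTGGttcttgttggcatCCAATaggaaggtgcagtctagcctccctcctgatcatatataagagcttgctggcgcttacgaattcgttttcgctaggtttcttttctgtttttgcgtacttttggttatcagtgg
Hist1h1e (chr13:23714322-23714621, minus strand, 300 bases): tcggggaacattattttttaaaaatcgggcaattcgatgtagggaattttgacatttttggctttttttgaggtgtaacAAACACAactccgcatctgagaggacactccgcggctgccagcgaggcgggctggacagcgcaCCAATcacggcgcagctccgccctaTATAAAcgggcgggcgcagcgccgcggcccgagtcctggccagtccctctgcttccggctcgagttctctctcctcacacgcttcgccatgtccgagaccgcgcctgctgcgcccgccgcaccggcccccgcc

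Inside the genes, runs of 37 bases, the length of the reads, were shared across a class. The word below that was held by the most genes of its class is given for each class, 200 to 263 bases after the annotated TSS.
H2A (in Hist1h2ai, chr13:21808481-21808517, plus strand): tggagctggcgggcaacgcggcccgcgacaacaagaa
H2B (in Hist3h2ba, chr11:58762676-58762712, plus strand): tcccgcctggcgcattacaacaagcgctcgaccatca
H3 (in Hist1h3h, chr13:21809729-21809765, plus strand): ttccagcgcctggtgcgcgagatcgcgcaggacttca
H4 (in Hist1h4j, chr13:21827148-21827184, plus strand): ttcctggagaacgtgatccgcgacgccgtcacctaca
H1 (in Hist1h1d, chr13:23647102-23647138, plus strand): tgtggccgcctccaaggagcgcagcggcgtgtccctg
The H2A word stood in 17 of 19 H2A genes and occurred 20 times in the genome. The H2B word stood in 16 of 18 genes and occurred 17 times, the H3 word in 11 of 11 and 12 times, and the H4 word in 11 of 13 and 11 times. The H1 genes were less alike, and their most shared word stood in 3 of 6 genes and nowhere else. Reads that matched more than 1 place had been discarded before the peaks were called.

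H3K4me3 marked most of the family in both genotypes. A peak within 2500 bp of the TSS was called at 57 of 67 histone genes (85.1%) in Scl:mCherry and at 57 in Scl Δ/Δ:mCherry, and 56 were the same genes. Over all protein-coding genes the share was 60.7% in Scl:mCherry and 60.3% in Scl Δ/Δ:mCherry. Only Hist1h3e had H3K4me3 in Scl:mCherry alone (1.06% of all genes did), with a peak of 922 bp and 3.79-fold enrichment over input across its TSS. Its nearest peak in Scl Δ/Δ:mCherry lay 5676 bp away. Hist1h2bm was the reverse (0.684% of all genes), with a Scl Δ/Δ:mCherry peak of 509 bp and 3.86-fold, and the nearest Scl:mCherry peak 3551 bp away. Both peaks were among the weaker ones of their lists, at the 14.2 and 12.3 percentile of fold enrichment.

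**Figure D1:**
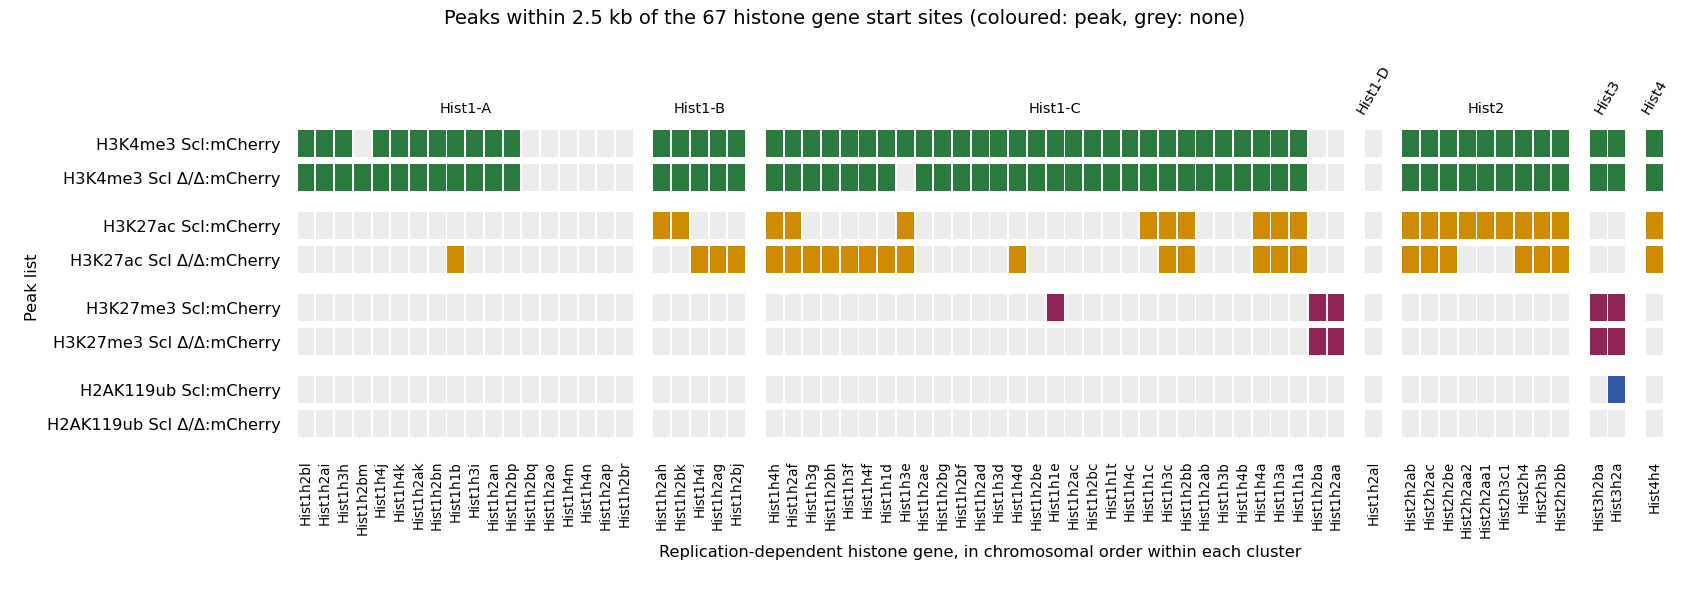
Presence of a peak within 2.5 kb of the TSS of each of the 67 histone genes (columns, in chromosomal order within each cluster) in each of the 8 peak lists (rows, 1 library each); a coloured cell is a called peak and a grey cell none. H3K4me3 fills 57 columns in each genotype, H3K27ac 21 and 25, H3K27me3 5 and 4, and H2AK119ub 1 and 0.

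9 histone genes had no H3K4me3 in either genotype, and they were of 3 kinds. Hist1h2bq, Hist1h2ao, Hist1h4m, Hist1h4n, Hist1h2ap and Hist1h2br, at the far end of Hist1-A, form an inverted repeat in which the arms are copies of each other over 11063 bp (followed outward until more than 5% of 200 bases differed), with the TSSs of Hist1h2bq and Hist1h2br 23544 bp apart. Hist1h2ba and Hist1h2aa are the testis H2B and H2A, the pair at the far end of Hist1-C. Hist1h2al lies by itself. The intervals between the divergent genes of the inverted repeat are shown because they are the same 167 bases on opposite strands, identical at 167 of 167 positions.
Hist1h2bq/Hist1h2ao (chr13:21902069-21902235, plus strand, 167 bases): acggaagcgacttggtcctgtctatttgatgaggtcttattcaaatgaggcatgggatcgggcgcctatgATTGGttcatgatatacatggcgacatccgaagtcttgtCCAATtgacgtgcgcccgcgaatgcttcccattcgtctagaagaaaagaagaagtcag
Hist1h2ap/Hist1h2br (chr13:21925445-21925611, plus strand, 167 bases): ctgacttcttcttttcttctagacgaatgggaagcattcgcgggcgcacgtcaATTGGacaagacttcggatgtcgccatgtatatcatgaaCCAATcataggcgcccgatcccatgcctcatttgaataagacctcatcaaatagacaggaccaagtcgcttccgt
Within 500 bp of the TSS, 94.1% to 100% of the 37-base words of these 6 genes occurred more than once in the genome, and the part of this in the missing calls was not tested. The nearest H3K4me3 peak to any of them lay 21511 bp away in Scl:mCherry and 21849 bp away in Scl Δ/Δ:mCherry, and no peak of the other marks came within 2500 bp. For Hist1h2al 52.2% of the words were repeated. For the testis pair the words were mostly unique (15.5% repeated at Hist1h2ba and 3.30% at Hist1h2aa), and an H3K27me3 peak was called there instead.

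Over the whole family the median share of repeated words within 500 bp of the TSS was 34.0%, and over all protein-coding genes it was 0%. The 56 genes with H3K4me3 in both genotypes had a median of 31% (0% to 71.1%), and the 9 without had 95.0%. It exceeded 50% at 18 of 67 histone genes (26.9%) against 6.53% of all genes, and at 7 of the 9 without H3K4me3. By class the median was 50.8% for H2A, 47.7% for H2B, 34.3% for H3, 20.8% for H4 and 8.40% for H1. Either read of a pair can place a fragment, so these shares overstate what is lost. The promoters were not poor in CpG, with a median observed over expected ratio of 0.879 against 0.553 for all genes at a GC content of 54.0% against 54.8%.

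**Figure D2:**
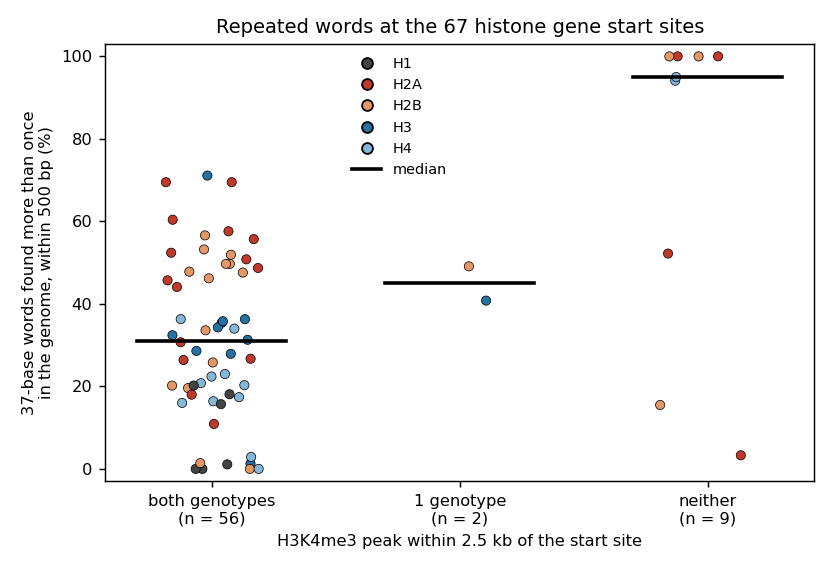
Share of 37-base words within 500 bp of the TSS that occur more than once in the mm9 genome (vertical axis, %), for the 67 histone genes grouped by H3K4me3 calls (horizontal axis); each point is a gene coloured by histone class, and black lines are medians. The medians were 31% for 56 genes called in both genotypes and 95.0% for 9 called in neither, 3 of which lie apart from the rest at 52.2%, 15.5% and 3.30%.

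H3K4me3 peaks at the histone genes were weak for their lists. Ranked by fold enrichment over input within its list, the strongest peak of a histone gene stood at a median percentile of 26.1 in Scl:mCherry and 17.8 in Scl Δ/Δ:mCherry, over the 56 genes called in both, whereas over all genes called in both the medians were 62.6 and 61.2. The 41 peaks of the histone genes in Scl:mCherry ranged from 3.0-fold to 6.15-fold, with a median of 4.4 against 6.42 for the whole list. The 42 peaks in Scl Δ/Δ:mCherry ranged from 3.22-fold to 5.97-fold, with a median of 4.13 against 6.01. The top peak was that of Hist3h2a in Scl:mCherry and that over Hist2h2ab, Hist2h2ac and Hist2h2be in Scl Δ/Δ:mCherry. The 74 ribosomal protein genes, another highly expressed family that is spread over the genome, all had H3K4me3 and stood at 91.6 and 89.3.

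The place of the peaks also differed. Around all 13324 protein-coding genes with H3K4me3 in both genotypes, cover rose to 89.4% of bases at 100 to 200 bp after the TSS in Scl:mCherry and 88.6% in Scl Δ/Δ:mCherry. At the 56 histone genes it was highest farther on, at 400 to 500 bp after the TSS, with 77.1% in Scl:mCherry and 69.5% in Scl Δ/Δ:mCherry. In the 100 bp before the TSS it was 51.9% and 24.8%. Repeated words reached 76.5% at 200 to 300 bp after the TSS of the histone genes, inside the short coding sequence, and fell to 4.07% in the 100 bp before the TSS. The part of repeated sequence in the cover was not tested.

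A peak covered the TSS base itself at 33 histone genes in Scl:mCherry and 15 in Scl Δ/Δ:mCherry. The 15 were all among the 33, so that 18 lost cover of the TSS in the mutant library and 0 gained it. Over all protein-coding genes 53.7% had a covered TSS in Scl:mCherry and 51.9% in Scl Δ/Δ:mCherry, with 11199 covered in both, 810 in Scl:mCherry only and 402 in Scl Δ/Δ:mCherry only. All 5 covered H1 genes (Hist1h1a to Hist1h1e, the main somatic H1 genes) lost it, their nearest peaks in Scl Δ/Δ:mCherry starting 31 to 85 bp from the TSS. Hist1-A went from 6 covered genes to 0, Hist1-B from 3 to 0 and Hist1-C from 15 to 7, while Hist2 went from 6 to 5 and Hist3 and Hist4 kept theirs.

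**Figure D3:**
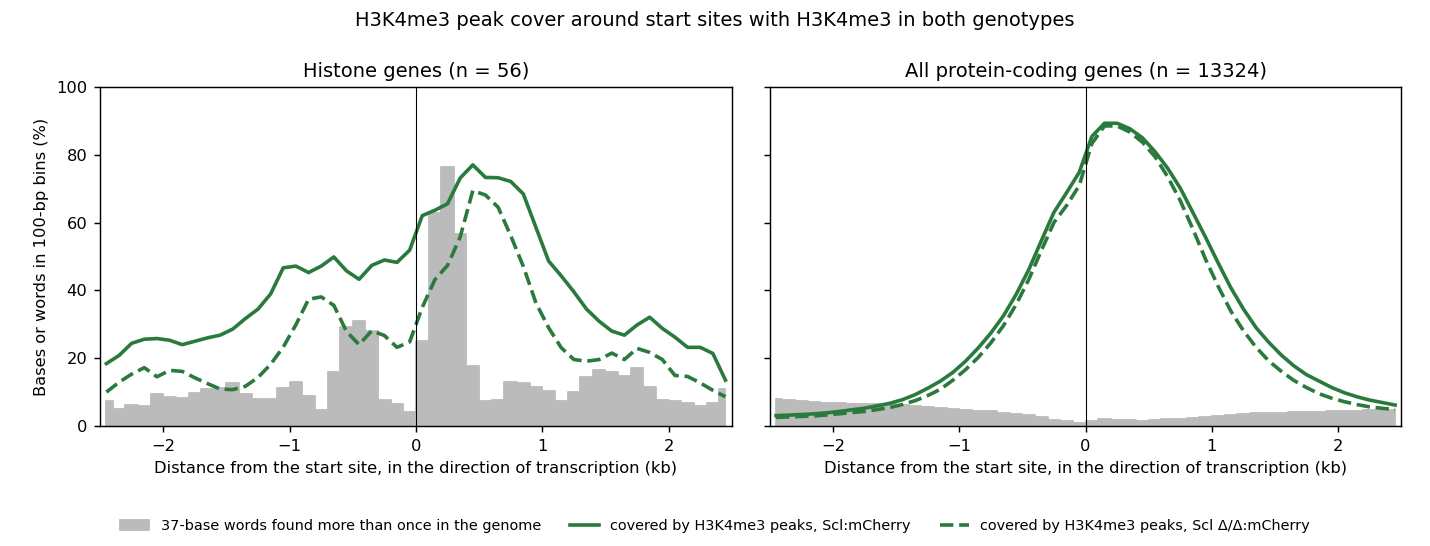
Share of bases covered by H3K4me3 peaks in 100-bp bins around the TSS (solid line Scl:mCherry, dashed line Scl Δ/Δ:mCherry, 1 library each) and share of 37-base words found more than once in the genome (grey), for 56 histone genes (left) and 13324 protein-coding genes (right) with H3K4me3 in both genotypes. At the histone genes cover is highest at 400 to 500 bp after the TSS (77.1% and 69.5%), beyond the grey block that reaches 76.5%.

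H3K4me3 peaks over the histone genes were shorter in Scl Δ/Δ:mCherry. Among the 56 genes called in both genotypes the summed peak length had a median of 2029 bp in Scl:mCherry and 1241 bp in Scl Δ/Δ:mCherry, and it was shorter in Scl Δ/Δ:mCherry at 51 and longer at 5. The median ratio of lengths, Scl Δ/Δ:mCherry over Scl:mCherry, was 0.626, with a range of 0.226 to 1.55. Over all 13324 genes called in both it was 0.928, with 67.1% shorter, and over the ribosomal protein genes 0.824, with 89.2% shorter. For 30 Hox genes, a family that is also clustered and whose H3K4me3 peaks were also weak (at the 25.0 and 14.7 percentile), it was 0.681, with 86.7% shorter. Neighbouring histone genes share peaks, so the 56 genes rest on 40 peaks in Scl:mCherry and 41 in Scl Δ/Δ:mCherry and are not separate measurements.

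The H3K4me3 list of Scl Δ/Δ:mCherry was weaker as a whole, and the part of this in the lengths was not tested. Its median −log10 q was 9.93 against 12.8, and peaks covered 20.9 Mb against 23.0 Mb. At the histone genes the median −log10 q was 3.46 against 4.74, and 26 of 42 peaks against 34 of 41 reached 3, whereas the share of all H3K4me3 peaks that reached 3 was 89.1% against 89.5%. With such peaks alone, 51 histone genes were called in Scl:mCherry, against 58.7% of all genes, and 40 in Scl Δ/Δ:mCherry, against 57.7%.

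Hist1h3i, an H3 gene in Hist1-A, had the lowest ratio of lengths, with 1164 bp in Scl:mCherry and 263 bp in Scl Δ/Δ:mCherry, where its TSS was no longer covered. The summed length of Hist1h3g went from 6820 to 3258 bp, which turned on the distance limit. Another Scl Δ/Δ:mCherry peak, of 2734 bp, overlapped the same Scl:mCherry peak and ended just beyond 2500 bp from the Hist1h3g TSS. Hist1h4h and Hist1h2af, under that Scl:mCherry peak, went from 6820 to 5992 bp. The pair Hist1h2ac and Hist1h2bc went from 1641 bp in a pair of peaks to 483 bp. The neighbours Hist1h2ab and Hist1h3b went from 1802 bp to 535 bp. The 3 genes Hist1h4i, Hist1h2ag and Hist1h2bj of Hist1-B shared 1 peak of 3355 bp in Scl:mCherry and a pair of peaks of 852 and 290 bp in Scl Δ/Δ:mCherry. Outside Hist1 the lengths changed less at the median, although Hist2h4 went from 1511 to 715 bp and Hist2h2aa1 and Hist2h3c1 from 1110 to 706 bp. Hist2h2ab, Hist2h2ac and Hist2h2be shared a peak of 2977 bp and one of 2632 bp, Hist3h2a had 2571 and 2519 bp, and Hist4h4 had 1192 and 1376 bp. By group the median ratio was 0.402 for Hist1-A, 0.340 for Hist1-B, 0.620 for Hist1-C, 0.884 for Hist2 and 0.936 for Hist3. By class it was 0.670 for H1, 0.620 for H2A, 0.688 for H2B, 0.582 for H3 and 0.70 for H4. These medians covered a narrower range than those of the groups, but some group medians rest on few peaks. That of Hist1-A was the ratio of Hist1h2bl, Hist1h2ai and Hist1h3h, which shared a Scl:mCherry peak. That of Hist1-B was the ratio of Hist1h4i, Hist1h2ag and Hist1h2bj, which also shared a peak, and its other genes had 0.869. Hist3 has only 2 genes.

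**Figure D4:**
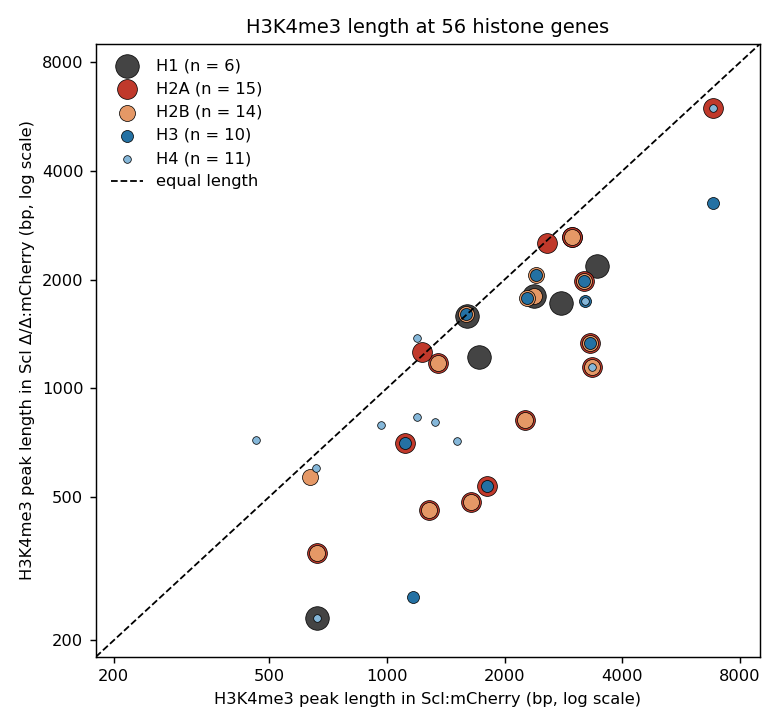
Summed length of the H3K4me3 peaks within 2.5 kb of the TSS of 56 histone genes in Scl:mCherry (horizontal, bp, log scale) and Scl Δ/Δ:mCherry (vertical, bp, log scale), coloured by class; the dashed line is equal length, and genes that share the same peaks lie on the same point, drawn as rings of different size by class. 51 genes lie below the line and 5 above it.

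Neighbouring histone promoters often lay within 2500 bp of the same peak. In both genotypes 44 of the 57 genes with H3K4me3 (77.2%) shared a peak with another gene of the family, against 22.9% of all genes with H3K4me3 that shared one with any protein-coding gene. Start sites are also denser in the family, where 89.6% against 20.1% had another protein-coding TSS within 5000 bp. When the peak had to cover the TSS, 18 genes in Scl:mCherry and 9 in Scl Δ/Δ:mCherry shared one. The peak with the most start sites within 2500 bp reached 5 genes in each genotype (Hist1h2ae, Hist1h2bg, Hist1h2bf, Hist1h2ad and Hist1h3d), and was 1974 bp long in Scl:mCherry and 817 bp in Scl Δ/Δ:mCherry. It covered the TSS of none of these genes in either genotype. Of the 13 divergent pairs, 10 shared an H3K4me3 peak in both genotypes, and in 3 (the inverted repeat and the testis pair) neither gene had one. The start sites of a pair lie at most 1000 bp apart, so a peak within 2500 bp of either gene mostly reaches the other. This count therefore follows largely from the spacing. 3 of the 41 Scl:mCherry peaks (7.32%) overlapped more than 1 Scl Δ/Δ:mCherry peak, against 0.692% of all Scl:mCherry peaks at protein-coding start sites, and none of the 42 was split the other way (0.491% of all). The longest, 6820 bp over Hist1h4h, Hist1h2af and Hist1h3g, faced peaks of 2734 and 3258 bp, and the 3315 bp peak over Hist1h2bl, Hist1h2ai and Hist1h3h faced 3 peaks of 573, 382 and 377 bp. The third was the peak of Hist1-B described with the lengths.

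The spans of the 7 groups, from 2500 bp before the first to 2500 bp after the last TSS, came to 619 kb. H3K4me3 covered 62.1 kb of them in Scl:mCherry and 42.9 kb (6.93%) in Scl Δ/Δ:mCherry, against 0.867% and 0.787% of the genome. In Hist1-C covered bases fell from 34.0 kb to 23.0 kb, and in Hist2 from 8.42 kb to 6.92 kb. Hist1-C is broken by a stretch with non-histone genes, among them the Slc17a transporters, between the H1 gene Hist1h1a and the testis pair, where no H3K4me3 peak was called.

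**Figure D5:**
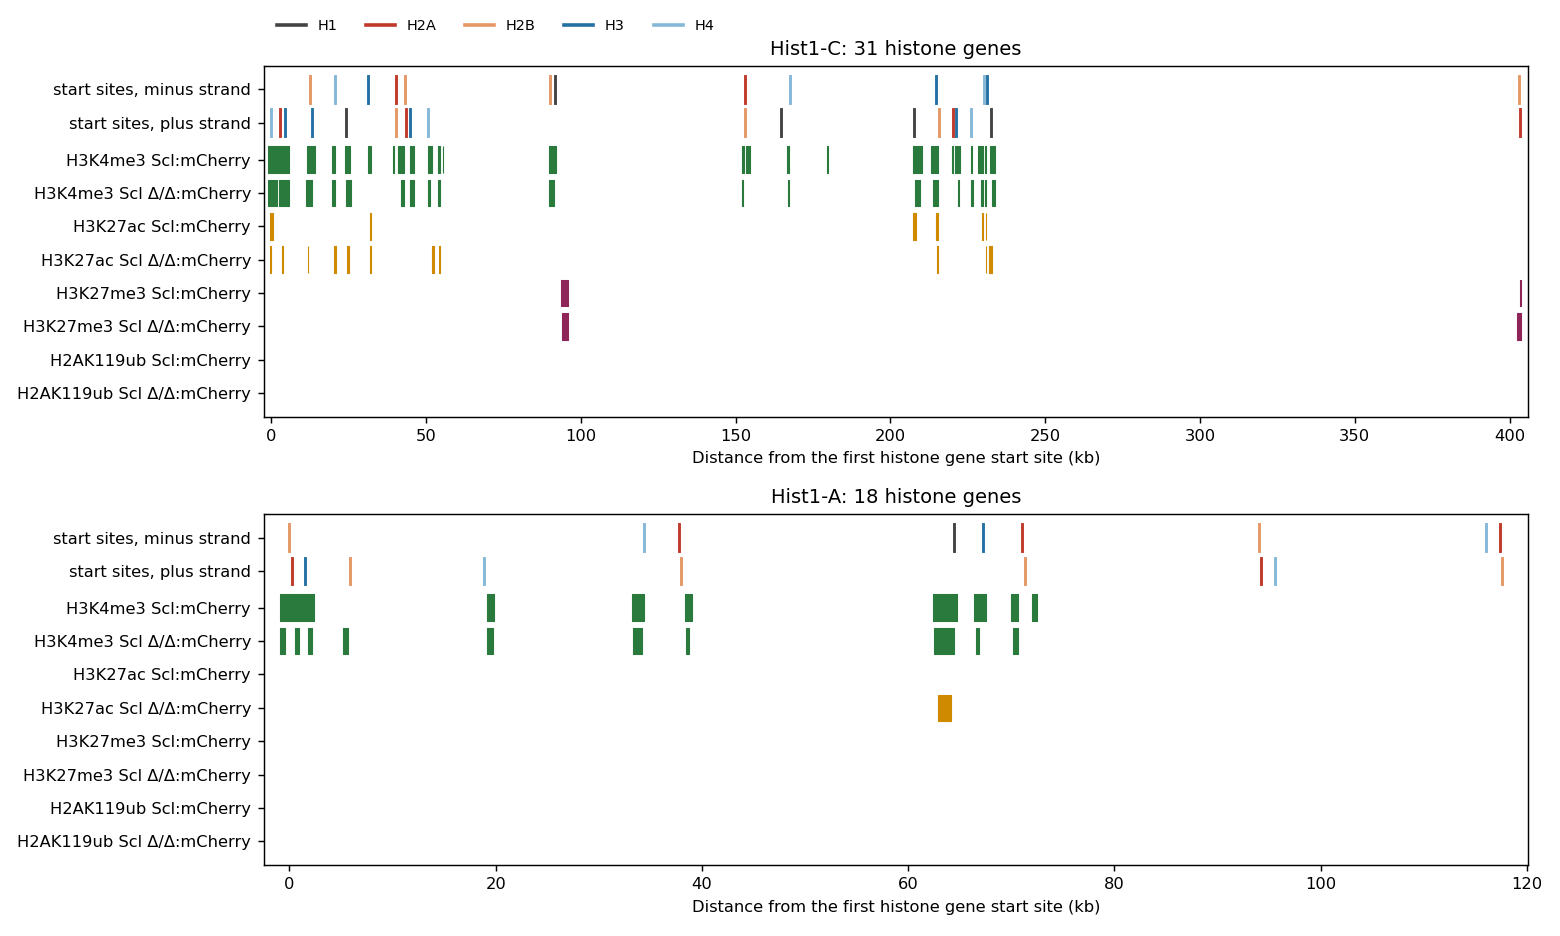
Called peaks along Hist1-C and Hist1-A by distance from the first histone gene TSS (horizontal, kb); ticks at the top are the TSSs by strand and histone class, and bars are peaks of each mark and genotype, 1 library each. H3K4me3 bars follow the histone TSSs and are narrower in Scl Δ/Δ:mCherry. H3K27me3 lies near Hist1h1e and at the testis pair at the right of Hist1-C, and the right end of Hist1-A, with 6 genes, holds no peak.

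H3K27ac was called at a smaller part of the family, and the genes differed between genotypes. It was present at 21 histone genes in Scl:mCherry, against 19.9% of all genes, and at 25 in Scl Δ/Δ:mCherry, against 22.8%. 15 genes had it in both genotypes, 6 in Scl:mCherry only (3.43% of all genes) and 10 in Scl Δ/Δ:mCherry only (6.37%). Of the ribosomal protein genes 67 and 70 of 74 had H3K27ac. An H3K27ac peak lay over the TSS itself at 3 histone genes in Scl:mCherry and 4 in Scl Δ/Δ:mCherry of the 21 and 25 called, against 48.9% and 49.1% of all called genes (9.71% and 11.2% of all genes).

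The 9 genes of Hist2 all had H3K27ac in Scl:mCherry. Hist2h2aa2, Hist2h2aa1 and Hist2h3c1 had it in Scl:mCherry only, from a peak of 203 bp at 3.93-fold for the first and a peak of 425 bp at 4.71-fold shared by the others. The other genes with it in Scl:mCherry only were the divergent pair Hist1h2ah and Hist1h2bk, which shared a peak of 585 bp at 4.95-fold, and the H1 gene Hist1h1c, with 942 bp at 4.11-fold. In Scl Δ/Δ:mCherry the nearest H3K27ac peak to these 6 genes lay from 5041 to 19518 bp away.

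The 10 genes with H3K27ac in Scl Δ/Δ:mCherry only lay in Hist1. Hist1h1b had a peak of 1251 bp at 4.37-fold and Hist1h1d one of 452 bp at 4.43-fold. Hist1h4i, Hist1h2ag and Hist1h2bj shared a peak of 308 bp at 3.87-fold, Hist1h2bh and Hist1h3f one of 164 bp at 3.58-fold, Hist1h3g had a peak of 209 bp at 3.84-fold that was also nearest to Hist1h2af, and Hist1h4f and Hist1h4d had peaks of 643 and 378 bp at 3.74-fold and 3.58-fold. Except for Hist1h1b and Hist1h1d, these peaks had a −log10 q under 2, close to the least a peak could have and be listed.

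The larger number in Scl Δ/Δ:mCherry rested on such peaks. Of the 16 H3K27ac peaks at histone genes in Scl Δ/Δ:mCherry 9 had a −log10 q under 2, and of the 13 in Scl:mCherry none did. With peaks of −log10 q of at least 3 the count was 17 in Scl:mCherry, against 13.7% of all genes, and 7 in Scl Δ/Δ:mCherry, against 13.6%, the reverse order. Of all H3K27ac peaks 63.4% and 53.7% reached 3. With as many peaks from the longer list as the shorter held, the count was 21 against 19.9% of all genes and 12 against 20.6%. Among genes with H3K27ac in both genotypes, Hist4h4 had peaks of 5.29-fold and 4.62-fold, and a short peak that reached Hist1h4a, Hist1h3a and Hist1h1a had 6.06-fold in Scl:mCherry and 4.77-fold in Scl Δ/Δ:mCherry, the highest value of either genotype at the family. Hist1h3e was called for H3K27ac in both genotypes (4.87-fold and 3.88-fold), although H3K4me3 was not called there in Scl Δ/Δ:mCherry. Its Scl Δ/Δ:mCherry H3K27ac peak was among those with a −log10 q under 2, at 1.80.

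H3K27me3 was rare in the family. It was called at 5 histone genes in Scl:mCherry and 4 in Scl Δ/Δ:mCherry, against 34.8% and 32.7% of all genes. It was found at all 39 Hox genes in both genotypes, and also at 68 and 56 of 74 ribosomal protein genes. No H3 or H4 gene had it. Hist3h2a and Hist3h2ba, the genes of Hist3, lay at a domain of 10651 bp at 5.86-fold in Scl:mCherry. In Scl Δ/Δ:mCherry it was split into a peak of 7559 bp at 6.44-fold, which reached both genes, and one of 1754 bp at 3.68-fold, 3088 bp from the TSS of Hist3h2ba. H3K27me3 covered 72.0% and 70.2% of the Hist3 span. Both genes carried H3K4me3 as well, and the H3K4me3 peak of Hist3h2a also reached a TSS of Trim17, a neighbouring gene that is not a histone gene. Trim17 was called for H3K27me3 too, with a summed length of 16132 bp in Scl:mCherry and 13386 bp in Scl Δ/Δ:mCherry. The testis pair Hist1h2ba and Hist1h2aa had a peak of 296 bp at 3.51-fold in Scl:mCherry and one of 1369 bp at 3.68-fold in Scl Δ/Δ:mCherry, with no other mark.

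Hist1h1e was the only histone gene with H3K27me3 in Scl:mCherry alone (7.04% of all genes were), and none had it in Scl Δ/Δ:mCherry alone (4.91%). This call turned on the distance limit. The Scl:mCherry peak, 2210 bp at 3.78-fold, lay 2245 bp from the Hist1h1e TSS, and the overlapping peak of Scl Δ/Δ:mCherry lay 2567 bp from it, just outside 2500 bp.

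H2AK119ub was called at 1 histone gene. Hist3h2a had a peak of 381 bp at 3.77-fold in Scl:mCherry, 2309 bp from its TSS, and no histone gene had one in Scl Δ/Δ:mCherry. This peak lay beyond the annotated end of Hist3h2a. The neighbour Trim17 was also called for H2AK119ub in Scl:mCherry, from a peak of the same length and fold. Over all genes 9.21% had H2AK119ub in Scl:mCherry and 5.00% in Scl Δ/Δ:mCherry, 5.08% in Scl:mCherry only and 0.863% in Scl Δ/Δ:mCherry only. The peak had a −log10 q of 1.82. Another H2AK119ub peak, of 360 bp at 3.65-fold, lay 4047 bp from the TSS of Hist3h2ba in Scl:mCherry, and the nearest to any histone gene in Scl Δ/Δ:mCherry lay 27834 bp from Hist1h2ah.

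Taking the 4 marks of a genotype at each gene, H3K4me3 alone was the commonest state, at 33 histone genes in Scl:mCherry (49.3%, against 18.5% of all genes) and 31 in Scl Δ/Δ:mCherry (46.3%, against 17.6%). H3K4me3 with H3K27ac followed, at 21 and 24 genes (31.3% and 35.8%, against 9.09% and 12.4%). H3K4me3 with H3K27me3, with or without H2AK119ub, and without H3K27ac, was found at 3 and 2 histone genes (4.48% and 2.99%, against 21.8% and 19.9% of all genes). No histone gene carried H3K27ac and H3K27me3 together, a state of 10.1% and 9.97% of all genes when H3K4me3 was present and H2AK119ub was not.

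The germline variants did not form 1 state. Hist1h1t, the testis H1, was called for H3K4me3 in both genotypes, but its nearest peak lay 1796 and 2157 bp away and only 184 and 257 bp from its neighbour Hist1h4c. At its own start site 0% of words were repeated. Hist1h1a, a somatic H1 subtype also found in the germ line, had H3K4me3 across its TSS in Scl:mCherry. Its nearest H3K27ac peak lay 1601 bp away in Scl:mCherry and over the TSS in Scl Δ/Δ:mCherry. The latter peak had a −log10 q of 1.33, close to the least a peak could have and be listed. Hist1h2aa and Hist1h2ba carried H3K27me3 alone, from peaks with a −log10 q under 3.

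The replication-independent histone genes, which make variants outside S phase and mostly have polyadenylated messages, had H3K4me3 peaks of higher fold enrichment. Of 11 found in the annotation 10 had H3K4me3 in both genotypes, and H1foo, the oocyte linker histone, had no mark. H3f3a and H3f3b, which encode H3.3, had H3K4me3 of 10.7-fold and 9.59-fold in Scl:mCherry and 8.40-fold and 7.70-fold in Scl Δ/Δ:mCherry, above every replication-dependent gene. H2afz, for H2A.Z, had 8.39-fold and 7.75-fold, and H2afx, for the damage-responsive H2A.X, had 15.6-fold and 8.46-fold. H3K27ac was called at 6 and 5 of the 11, and H3K27me3 at 7 and 6.

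The genes that transcribe and process histone messages had H3K4me3 throughout. All 19 had H3K4me3 in both, 13 in each had H3K27ac, and 11 had it in both. Npat had H3K4me3 of 10.3-fold and 9.44-fold and H3K27ac peaks of 797 and 1485 bp. Slbp, which binds the stem-loop, had H3K4me3 of 8.81-fold and 6.51-fold, and Hinfp had 8.72-fold and 7.30-fold. The cyclin E gene Ccne1 had H3K27ac in Scl:mCherry only, and Ccne2 had it in both. None of the 19 had H2AK119ub, and 8 and 5 had H3K27me3.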

How the data were processed

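ChIP-Rx libraries of 4 histone marks and 2 inputs in 2 genotypes (10 libraries, 8 with a peak list) were examined, 1 library per group, named by the labels. The authors sequenced 37-base paired reads, aligned them with Bowtie to mm9, kept reads that matched 1 place only, removed duplicates and high-ploidy regions, and called broad peaks in each library against the input of its genotype with MACS2 2.0.10 at a broad cutoff of 0.05. Whether the spike-in scaled the peak calls is not given in the sources used here. The deposited columns are a fold ratio over input, −log10 p, −log10 q of each peak (a p-value and q-value) and a score. The score and −log10 p entered no reported value except that −log10 p ranked peaks in an alternative. No count of reads is held in the lists, so depth and its precision are unknown, and a missing peak does not show that a mark is absent.

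The genome NCBIM37 (mm9) and GENCODE M1 match the build of the lists. A gene counted as marked if any TSS of its protein-coding transcripts had a peak at most 2500 bp away, checked against bedtools 2.31.1. Length is the sum over a gene's peaks. Fold percentiles rank a peak within its list. A 37-base word was counted on both strands of the genome (Python 3.11.15, numpy 2.4.6, pandas 2.3.3), with the code tested on simulated data. No test between genotypes was possible with 1 library per group, and counts stand beside those over all 22359 genes. The genes named are those that differ between genotypes in any mark, have H2AK119ub, lack H3K4me3 in both genotypes, have the peaks that are longest or hold the most genes, or are germline variants. Genes named for the extremes of length change or fold were added after their values were seen. The genes and lists were chosen with earlier results of these data known. H1f0 was not found by name in the annotation.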

Additional observations from a re-analysis of the deposited data

How the results depend on the processing

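No paired analysis was possible because each mark and genotype had a single library. Of 128 counts and shares recomputed under 5 alternatives, 83 stayed within 1.5 times the reported value and 45 moved further. The 24 with peaks up to 3000 bp apart joined all stayed, but joining cannot remove a call from a gene. Peak lengths and splitting were not recomputed with joined peaks. The cause of the moves was not tested beyond what each alternative removes. Values are in the order Scl:mCherry, Scl Δ/Δ:mCherry, then genes called in Scl:mCherry only and in Scl Δ/Δ:mCherry only. When the peak had to cover the TSS, H3K4me3 was called at 33 and 15 histone genes (18 and 0 in 1 genotype only), H3K27ac at 3 and 4 (2 and 3), H3K27me3 at 2 in Scl:mCherry (0 and 1), and H2AK119ub at 0 (0); genes sharing a peak numbered 18 and 9 for H3K4me3, 0 and 0 for H3K27ac, and 0 and 2 for H3K27me3. With a −log10 q of at least 3, H3K4me3 was called at 14 genes in Scl:mCherry only and 3 in Scl Δ/Δ:mCherry only, and 29 shared a peak in Scl Δ/Δ:mCherry; H3K27ac was called at 7 in Scl Δ/Δ:mCherry (11 and 1 in 1 genotype only), 5 of which shared a peak, and covered 0.282% of the spans there. H3K27me3 was then called at 3 and 2 genes, 2 and 2 sharing a peak, and H2AK119ub at 0 (0), covering 0% of the spans. Within 1000 bp, H3K4me3 was called in Scl:mCherry only at 4 genes, H3K27me3 at 0, and H2AK119ub at 0 (0). With as many peaks from both lists of a mark, H3K4me3 was called in Scl Δ/Δ:mCherry only at 3 genes, H3K27ac at 12 in Scl Δ/Δ:mCherry (11 and 2 in 1 genotype only), 8 sharing a peak, and H2AK119ub at 0 (0).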
